A study of Mus musculus with 8 samples.

Results

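The genes described here are 10 regulators and products of fat cell formation, measured by RNA-seq in mouse embryonic fibroblasts (MEFs) and in MEFs treated with 1 of 3 small molecules. They were chosen by symbol in the deposited table of reads per gene, which lists 50578 genes. They comprise the transcription factors Cebpb, Cebpd, Pparg and Cebpa, the lipid supply genes Lpl, Cd36 and Fabp4, the lipid droplet gene Plin1 and the secreted proteins Adipoq and Cfd. Of these 10 genes, 7 had enough reads to be among the 15154 genes tested, and each of the 7 had at least 18 reads in every library. Plin1, Adipoq and Cfd did not.

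The study screened for molecules that turn fibroblasts into hepatic progenitor-like cells, and 4 groups of 2 libraries each were sequenced. All cells were wild-type (WT) MEFs at passage 3 to 5, primary cells of embryonic connective tissue that the methods describe as derived from C57BL/6J mice at E13.5, after removal of head, limbs and inner organs. The control group was untreated, and the other groups received 10 µM of carbidopa, of LY-364947 or of CHIR-99021. Carbidopa is an inhibitor of aromatic L-amino acid decarboxylase. LY-364947, which the sample labels write as LY-364747, blocks the kinase of the TGF-beta receptor. CHIR-99021 blocks GSK3, and Wnt signaling is switched on as a result. For the sequenced cells, the time of treatment, the vehicle of the controls and which embryos each culture came from are not given in the sources used here. Nothing states that the 2 libraries of a group came from separate cultures, so the p-values measure the spread between these libraries, which may be technical.

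Fat cell formation from fibroblast-like precursors runs through a cascade of transcription factors. C/EBPβ and C/EBPδ appear early and switch on PPARγ and C/EBPα, which maintain each other and turn on the genes of the mature fat cell. Wnt signaling and TGF-beta signaling are known to hold this cascade back. Among the products, lipoprotein lipase releases fatty acids from circulating triglyceride, CD36 takes them up, FABP4 carries them inside the cell and perilipin 1 coats the lipid droplet.

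The sequences in front of Pparg and Plin1 are shown because they held the only matches to the C/EBP core among the genes whose sequence could be searched. Pparg has several starts upstream and a start further downstream, the latter belonging to the isoform made mainly by fat cells, and the window of 1 upstream start is shown for comparison. The 250 bases before each start were taken from RefSeq (GRCm38.p6), which held 9 windows for 7 of the 10 genes. Cebpd, Lpl and Fabp4 had no window and were not searched for any motif. Capitals mark matches, on either strand, to the C/EBP core TTGCNNAA, the CCAAT box CCAAT, the TATA box TATAAA and the nuclear receptor half-site AGGTCA, and no matches overlapped.
Pparg, upstream start (chr6:115362099-115362348, plus strand): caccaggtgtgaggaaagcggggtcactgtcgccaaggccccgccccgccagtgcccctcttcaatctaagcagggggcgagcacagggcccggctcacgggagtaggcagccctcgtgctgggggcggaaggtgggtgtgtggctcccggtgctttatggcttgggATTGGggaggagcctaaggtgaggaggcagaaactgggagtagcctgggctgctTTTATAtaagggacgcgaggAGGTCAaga
Pparg, downstream start (chr6:115421816-115422065, plus strand): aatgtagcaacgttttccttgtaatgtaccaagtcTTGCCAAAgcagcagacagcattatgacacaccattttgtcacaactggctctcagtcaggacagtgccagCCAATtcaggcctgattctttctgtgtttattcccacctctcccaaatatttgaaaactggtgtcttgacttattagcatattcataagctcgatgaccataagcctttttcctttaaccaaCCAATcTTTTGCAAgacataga
Plin1 (chr7:79732777-79733026, minus strand): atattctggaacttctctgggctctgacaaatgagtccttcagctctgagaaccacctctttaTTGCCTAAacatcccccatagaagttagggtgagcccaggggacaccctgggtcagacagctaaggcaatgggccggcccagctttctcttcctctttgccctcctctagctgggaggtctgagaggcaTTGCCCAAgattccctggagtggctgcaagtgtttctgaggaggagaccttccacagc
The downstream Pparg window held a C/EBP core at positions -215 to -208 and at -16 to -9, counted from the start, beside CCAAT boxes that begin at -144 and -22. The Plin1 window held C/EBP cores at -187 to -180 and at -58 to -51. These were the only C/EBP cores in the 9 windows, against 9.56% of all 32851 RefSeq windows of this length. CCAAT occurred in 33.8%, TATAAA in 12.4% and AGGTCA in 14.0% of all windows, and the upstream Pparg window shown held 1 match to each. No window of these genes held the TCF/LEF core CTTTGA (13.8%) or the SMAD palindrome GTCTAGAC (0.167%), which says only that these letters are not in these windows. The matches describe the sequence and were not linked to binding. Reads were counted per gene, so the starts of Pparg cannot be told apart in the counts.

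Total counts ranged from 15039566 to 20504338 per library. The genes named above took 5974 and 7393 reads of the untreated libraries and 1759 to 3801 reads of each treated library. Levels are given in CPM, the count of a gene relative to the total of its library after scaling by TMM, and 3 reads correspond to 0.140 to 0.223 CPM. Differences were tested by edgeR's quasi-likelihood test over all genes and all 8 libraries, and a gene is said to rise or fall only at a Benjamini-Hochberg adjusted p under 0.05. The comparisons with MEFs share the same 2 MEF libraries, and changes in bulk RNA cannot tell fewer cells of a type from less RNA per cell.

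Against MEFs, Lpl and Cebpd fell in all 3 treatments, Fabp4 fell with carbidopa and LY-364947 but not with CHIR-99021, and Cd36 fell with CHIR-99021. Pparg, Cebpa and Cebpb did not pass the test in any of the 3 comparisons, and no gene of the group rose. Hence 3 of the 7 genes tested differed with carbidopa, where 37.7% of all genes differed (18.0% higher, 19.7% lower). The same number, 3 of 7, differed with LY-364947 (31.0% of all genes, 13.7% higher and 17.2% lower) and with CHIR-99021 (38.8% of all genes, 18.7% higher and 20.1% lower). The number of changes is close to that of all genes, and the results lie in which genes changed and by how much. The 7 genes had a median log2 fold change of -0.49 (carbidopa), -0.65 (LY-364947) and -0.40 (CHIR-99021), where all genes tested had 0.04, 0.03 and 0.04.

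**Figure D1:**
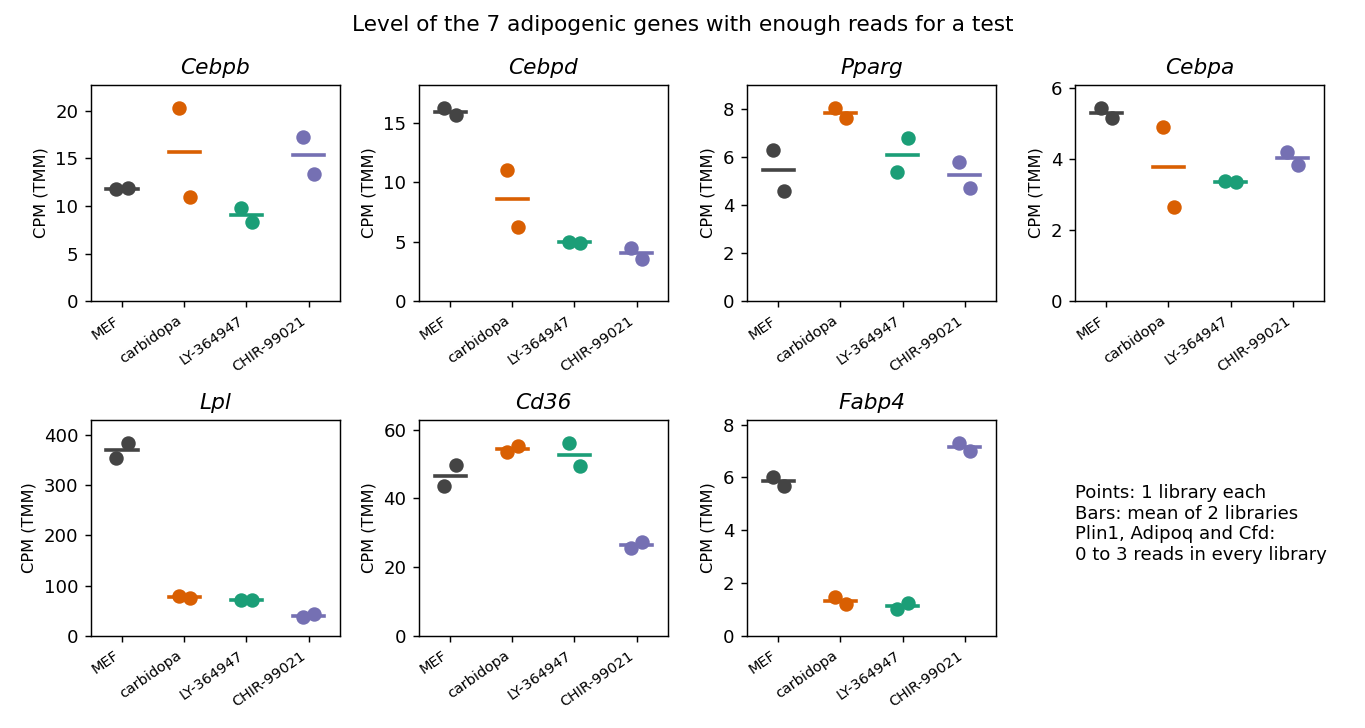
CPM (y axis, linear from 0) of the 7 tested genes in each of the 8 libraries, with points for single libraries and bars for the mean of the 2 libraries of a group. Lpl lies at 355 and 384 CPM in MEFs and between 36.7 and 79.8 CPM in treated cells, Fabp4 is low in the carbidopa and LY-364947 libraries alone, and the carbidopa points of Cebpb, Cebpd and Cebpa lie far apart.

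Of the early regulators, Cebpd fell in each treatment and Cebpb passed the test in none. Cebpb encodes C/EBPβ, an early activator of the cascade that many stress and cytokine signals also induce. Untreated cells had 11.7 and 11.9 CPM, against 20.3 and 11.0 after carbidopa, 9.77 and 8.36 after LY-364947 and 17.3 and 13.4 after CHIR-99021. The carbidopa libraries stood on either side of MEFs, both LY-364947 libraries were lower and both CHIR-99021 libraries were higher, with no adjusted p under 0.05. The log2 fold changes were 0.40 with carbidopa (standard error 0.26, adjusted p = 0.243), -0.38 with LY-364947 (standard error 0.27, adjusted p = 0.319) and 0.38 with CHIR-99021 (standard error 0.26, adjusted p = 0.280). The carbidopa value depended on single libraries, being 0.78 (adjusted p = 0.00284) without carbidopa replicate 2 and -0.11 (adjusted p = 0.696) without carbidopa replicate 1. In a fit of the MEF and LY-364947 libraries alone, Cebpb was lower with LY-364947 (adjusted p = 0.0395).

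Cebpd encodes C/EBPδ, the partner of C/EBPβ in the early step and a gene of the acute phase response. The MEF libraries held 16.2 and 15.6 CPM, those of carbidopa 11.0 and 6.20, those of LY-364947 5.00 and 4.90, and those of CHIR-99021 4.49 and 3.54. All 6 treated libraries lay below both MEF libraries. The mean was 15.9 ± 0.422 CPM (SD, n = 2) in MEFs, and carbidopa, LY-364947 and CHIR-99021 left 8.61 ± 3.40, 4.95 ± 0.0680 and 4.02 ± 0.672. The fall was 1.85-fold with carbidopa (log2 fold change -0.89, standard error 0.24, edgeR adjusted p = 0.0155), 3.21-fold with LY-364947 (-1.68, standard error 0.25, adjusted p = 5.62e-04) and 3.96-fold with CHIR-99021 (-1.98, standard error 0.26, adjusted p = 1.98e-04). With carbidopa the log2 fold change was -1.36 without carbidopa replicate 1 and -0.53 without carbidopa replicate 2. The call was lost, at a fold of similar size, without MEF replicate 1 (-0.86, adjusted p = 0.0796) or MEF replicate 2 (-0.92, adjusted p = 0.0675). The other falls of Cebpd held under every alternative run.

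The late regulators showed no change that passed the test. Pparg encodes PPARγ, the nuclear receptor without which fat cells do not form. Untreated cells had 6.32 and 4.58 CPM, against 8.05 and 7.65 after carbidopa, 5.39 and 6.82 after LY-364947 and 5.82 and 4.70 after CHIR-99021. Both carbidopa libraries lay above both MEF libraries, whereas the other treatments overlapped with MEFs. Its log2 fold change with carbidopa was 0.53 (95% interval 0.05 to 1.01, unadjusted p = 0.0332, edgeR adjusted p = 0.0773), and it was 0.31 without MEF replicate 2 (adjusted p = 0.423) and 0.78 without MEF replicate 1 (adjusted p = 0.0683). With LY-364947 it was 0.17 (95% interval -0.32 to 0.66) and with CHIR-99021 -0.05 (95% interval -0.55 to 0.46). The 3 intervals together reach from -0.55 to 1.01, at 71 to 171 reads per library.

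Cebpa encodes C/EBPα, which sustains Pparg expression and gives the fat cell its insulin response. The MEF libraries held 5.43 and 5.16 CPM, those of carbidopa 4.90 and 2.66, those of LY-364947 3.37 and 3.35, and those of CHIR-99021 4.20 and 3.83. All 6 treated libraries were below both MEF libraries, by log2 fold changes of -0.49 (carbidopa, adjusted p = 0.186), -0.65 (LY-364947, adjusted p = 0.106) and -0.40 (CHIR-99021, adjusted p = 0.283). Without carbidopa replicate 1 the value with carbidopa was -0.99 (adjusted p = 0.00970), and in a fit of the 2 groups alone the value with LY-364947 passed the test (adjusted p = 0.0198).

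Carbidopa replicate 1 had 1.85 times the CPM of replicate 2 for Cebpb, 1.78 times for Cebpd and 1.84 times for Cebpa. The ratio was 1.05 for Pparg, 1.05 for Lpl, 0.965 for Cd36 and 1.20 for Fabp4. The carbidopa libraries also differed most over all genes, with counts that varied 36.9 times as much as sampling noise allows, against 4.44 to 9.59 times in the other groups. No library of a group was thus a copy of the other.

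**Figure D2:**
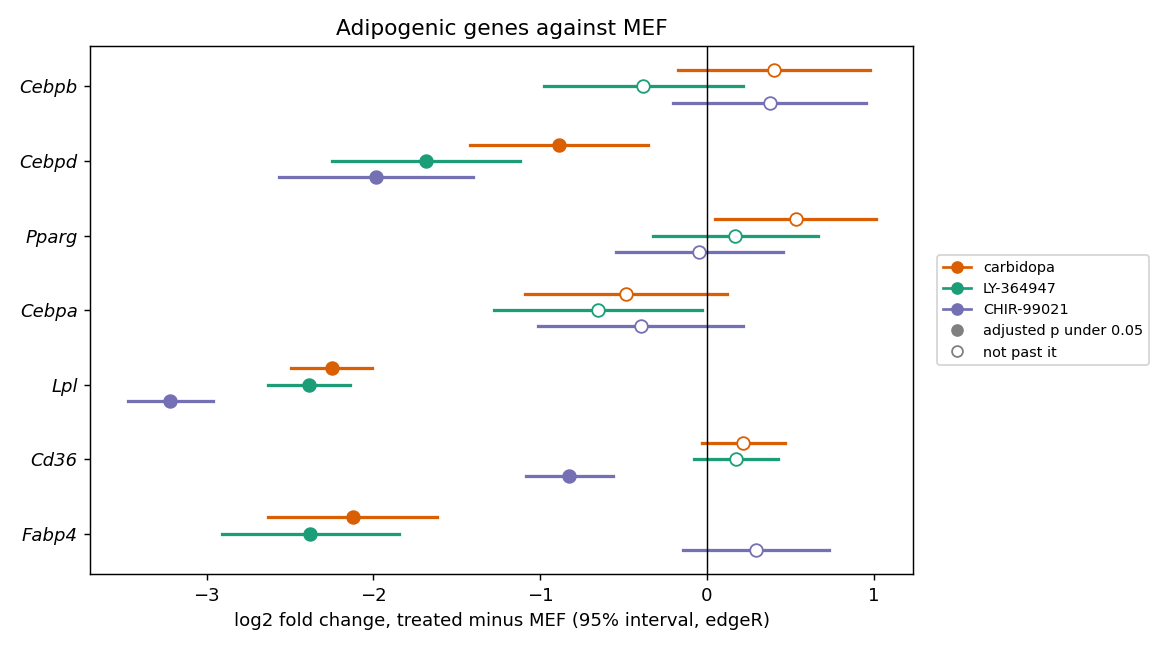
Log2 fold change of each tested gene against MEFs (x axis) for carbidopa, LY-364947 and CHIR-99021, with the 95% interval from edgeR as a line and a filled point where the adjusted p was under 0.05. Lpl and Cebpd have 3 filled points below 0, Fabp4 has 2 filled points near -2.12 and -2.38 and an open point at 0.29, and Cd36 has a single filled point at -0.82.

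Among the lipid supply genes, Lpl fell in each treatment, Fabp4 in 2 of the 3 and Cd36 in 1. Lpl encodes lipoprotein lipase, which cleaves the triglyceride of lipoproteins outside the cell. Untreated cells had 355 and 384 CPM, against 79.8 and 75.7 after carbidopa, 70.6 and 70.6 after LY-364947 and 36.7 and 42.8 after CHIR-99021. Every treated library lay far below both MEF libraries, and the CHIR-99021 libraries lay below the other treated ones. The fall was 4.76-fold with carbidopa (log2 fold change -2.25, standard error 0.11, edgeR adjusted p = 1.59e-07), 5.23-fold with LY-364947 (-2.39, standard error 0.11, adjusted p = 1.14e-07) and 9.30-fold with CHIR-99021 (-3.22, standard error 0.11, adjusted p = 2.37e-08). In raw reads the gene went from 4772 and 5958 in MEFs to between 637 and 1695 in treated cells.

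Cd36 encodes the fatty acid translocase of the plasma membrane. The MEF libraries held 43.7 and 49.7 CPM, those of carbidopa 53.4 and 55.3, those of LY-364947 56.2 and 49.3, and those of CHIR-99021 25.5 and 27.2. The CHIR-99021 libraries stood below all others, the carbidopa libraries just above MEFs, and the LY-364947 libraries overlapped with MEFs. Cd36 fell 1.77-fold with CHIR-99021 (log2 fold change -0.82, standard error 0.12, edgeR adjusted p = 3.27e-04). With carbidopa the log2 fold change was 0.22 (95% interval -0.03 to 0.47, adjusted p = 0.152) and with LY-364947 0.18 (95% interval -0.08 to 0.43, adjusted p = 0.278).

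Fabp4 encodes the cytosolic fatty acid carrier of fat cells, also known as aP2. Untreated cells had 6.02 and 5.68 CPM, against 1.46 and 1.21 after carbidopa, 1.01 and 1.22 after LY-364947 and 7.31 and 7.02 after CHIR-99021. The carbidopa and LY-364947 libraries formed a low set and the CHIR-99021 libraries lay slightly above MEFs. The fall was 4.36-fold with carbidopa (log2 fold change -2.12, standard error 0.23, edgeR adjusted p = 4.85e-05) and 5.20-fold with LY-364947 (-2.38, standard error 0.24, adjusted p = 3.11e-05). With CHIR-99021 the log2 fold change was 0.29 (95% interval -0.14 to 0.73, adjusted p = 0.265). The calls for Lpl, Cd36 and Fabp4 held under every alternative run.

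The products that mark a mature fat cell were not detectable above the counting limit. Plin1, the coat protein of the lipid droplet, had 0 reads in all 8 libraries. Adipoq, the hormone adiponectin, had 1 read in carbidopa replicate 1, 2 in LY-364947 replicate 2 and 0 elsewhere. Cfd, the serine protease adipsin, had 3 reads in carbidopa replicate 2 and 0 elsewhere. A count of 0 allows up to 3 reads, which is at most 0.223 CPM in these libraries, so no fold change is given. Intervals and limits of this kind cover counting error only.

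Set against transcript length, the order of the genes changed with treatment. CPM divided by the kilobases of the longest coding transcript (RPKM) was used for this comparison, since a long transcript collects more reads than a short one. Reads were counted per gene, and all annotated exons span more bases than this transcript. They cover 4489 bases against 896 for Fabp4 and 10478 against 4115 for Lpl, so the ranks below depend on the length used. In MEFs Lpl had 89.8 RPKM, Cd36 13.7, Cebpb 7.85, Fabp4 6.53, Cebpd 4.25, Pparg 2.57 and Cebpa 2.02. With carbidopa Lpl (18.9) and Cd36 (16.0) lay close to each other, and with LY-364947 likewise (17.2 and 15.5). With CHIR-99021 Cebpb had 10.2 RPKM, Lpl 9.66, Fabp4 8.0 and Cd36 7.76. The Cebpb libraries of that group (11.5 and 8.91 RPKM) overlapped with the Lpl libraries (8.91 and 10.4 RPKM), so these neighbours did not differ beyond their spread. Fabp4 was at 1.49 RPKM with carbidopa and 1.25 with LY-364947, beside Cebpa (1.44 and 1.28).

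The treatments were also compared with each other. Between LY-364947 and carbidopa none of the 7 genes passed the test, where 0.0132% of all genes did (2 of 15154, both higher). Cebpb and Cebpd were nearest, with log2 differences of -0.79 (95% interval -1.36 to -0.21, unadjusted p = 0.0123) and -0.80 (95% interval -1.37 to -0.23, unadjusted p = 0.0106), both at an edgeR adjusted p of 0.519. Both passed without carbidopa replicate 2 (adjusted p = 0.00129 and 0.00182). For Lpl the difference was -0.14 (95% interval -0.38 to 0.10), and for Fabp4 -0.25 (95% interval -0.86 to 0.35).

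CHIR-99021 differed from carbidopa in 4 of the 7 genes, against 14.7% of all genes (6.62% higher, 8.08% lower). Fabp4 was 5.34-fold higher with CHIR-99021 (log2 difference 2.42, standard error 0.22, edgeR adjusted p = 1.12e-04). The other called genes were lower, with a log2 difference of -0.97 for Lpl (standard error 0.11, adjusted p = 3.46e-04), of -1.04 for Cd36 (standard error 0.12, adjusted p = 3.15e-04) and of -1.10 for Cebpd (standard error 0.26, adjusted p = 0.0200). The Cebpd call was lost without carbidopa replicate 1 (-0.63, adjusted p = 0.0546), CHIR-99021 replicate 1 (adjusted p = 0.0800) or CHIR-99021 replicate 2 (adjusted p = 0.133). For Pparg the log2 difference was -0.58, without passing the test (95% interval -1.05 to -0.10, adjusted p = 0.102).

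CHIR-99021 differed from LY-364947 in 3 of the 7 genes, against 14.1% of all genes (6.45% higher, 7.69% lower). Fabp4 was 6.37-fold higher (log2 difference 2.67, standard error 0.23, edgeR adjusted p = 9.12e-05), Lpl was lower with a log2 difference of -0.83 (standard error 0.11, adjusted p = 9.00e-04) and Cd36 with -1.0 (standard error 0.12, adjusted p = 4.14e-04). Cebpb was higher by 0.76 (standard error 0.26) at an adjusted p of 0.0832, and at 0.0447 by DESeq2. The CHIR-99021 libraries are shared by both of these comparisons. In both comparisons Fabp4 thus differed in the direction opposite to that of Lpl and Cd36, which were lowest with CHIR-99021, where Fabp4 was highest. Against MEFs, Fabp4 and Lpl instead fell together with carbidopa (log2 fold changes -2.12 and -2.25) and with LY-364947 (-2.38 and -2.39).

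The genes lie on different chromosomes, apart from Cebpa with Plin1 on chromosome 7 and Cebpd with Adipoq on chromosome 16 (GENCODE M21, GRCm38). Cebpb (ENSMUSG00000056501, chr2:167688915-167690418) and Cebpd (ENSMUSG00000071637, chr16:15887286-15891031) have a single exon each and lie on the plus strand. Both overlap a gene on the other strand, Cebpb by 312 bases (20.7% of its exonic bases) with Tmem189 and Cebpd by 562 bases (15.0%) with Spidr. Whether reads were counted by strand, and how reads in such overlaps were assigned, is not given in the sources used here. What these overlaps did to the counts of Cebpb and Cebpd is therefore not known. Spidr had log2 fold changes of -0.47, -0.44 and -0.81 and Tmem189 of -0.46, -0.50 and -0.26, in the order carbidopa, LY-364947 and CHIR-99021. Pparg (ENSMUSG00000000440) spans chr6:115360951-115490399 and Lpl (ENSMUSG00000015568) chr8:68880491-68907448, both on the plus strand. Cd36 (ENSMUSG00000002944) spans chr5:17781690-17888801 and Fabp4 (ENSMUSG00000062515) chr3:10204088-10208576, both on the minus strand. Of Pparg, Lpl, Cd36 and Fabp4, only Lpl shared words of 75 bases with other genes (0.89% of its words). Cebpb shared 16.7% of its words with Tmem189, and Cebpd shared 13.1% with Spidr.

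Other cell types are known to express some of these genes, so markers of such cells were read in the same libraries. Lpl, Cd36 and Fabp4 are known in macrophages as well as in fat cells. The summed level of 18 macrophage markers was 1339 and 1379 CPM in MEFs, and it ranged from 396 to 418 (carbidopa), from 296 to 305 (LY-364947) and from 99.8 to 106 CPM (CHIR-99021), and no marker was at 0 in all libraries. Of the 16 macrophage markers tested, 15, 15 and 16 fell in these treatments (19.7%, 17.2% and 20.1% of all genes), with median log2 fold changes of -1.49, -1.92 and -3.67, and Lyz2 and Cd68 led in level. Relative to the MEF mean, macrophage markers stood at 29.9%, 22.1% and 7.59%, Lpl at 21.0%, 19.1% and 10.8%, Fabp4 at 22.8%, 19.1% and 122%, and Cd36 at 116%, 113% and 56.5%. Lpl and the macrophage sum thus moved together over the groups, whereas Fabp4 and Cd36 each departed from it in at least 1 treatment. Lyz2 alone held 738 and 758 CPM of the macrophage sum in MEFs, so the sum largely follows 1 marker. The part of macrophages in the fall of Lpl was not tested.

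**Figure D3:**
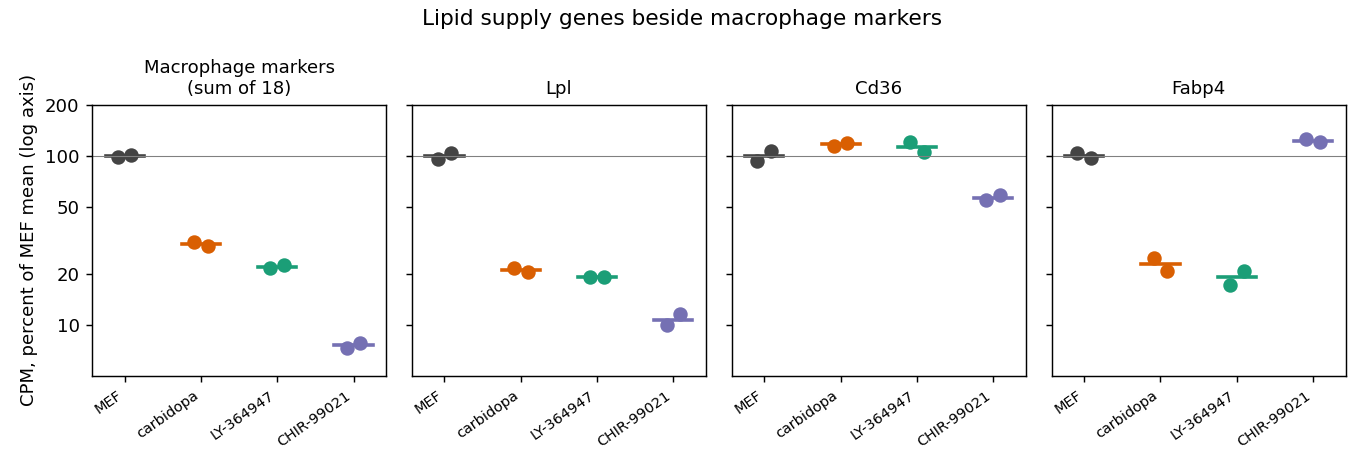
CPM of the summed macrophage markers, Lpl, Cd36 and Fabp4 in each library as percent of the MEF mean (log axis), with points for libraries and bars for group means. The macrophage sum and Lpl step down together to 7.59% and 10.8% with CHIR-99021, where Fabp4 stands at 122% and Cd36 at 56.5%.

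The fibroblast label was checked against 16 fibroblast markers, which summed to 40130 and 39785 CPM in MEFs. They summed to 9950 to 13904 CPM in treated libraries, with 13 of the 16 lower and 1 higher in each treatment, where 17.2% to 20.1% of all genes were lower and 13.7% to 18.7% higher. Fn1 and Col1a1 led this list in level. Capillary endothelial cells are also known to carry Cd36 and Fabp4. The 10 endothelial markers summed to 13.0 to 20.9 CPM in all libraries, and Cldn5 was at 0 throughout. Treated cells carry the label of hepatic-like cells. The 14 hepatocyte markers held 12 to 14 reads in MEF libraries and 23 to 36 in treated libraries, with Serpina1a and Tat among those at 0, and none had enough reads for a test.

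Beyond the 10 genes, 101 further genes of fat cell formation and lipid storage were read in 5 lists, of which 84 were tested. Their counts can be read against all genes tested, of which 18.0%, 13.7% and 18.7% rose and 19.7%, 17.2% and 20.1% fell, in the order carbidopa, LY-364947 and CHIR-99021. Their median log2 fold changes lay between -0.41 and 0.16, and each list had genes that rose and genes that fell in every treatment. Among 24 pro-adipogenic factors, 6 rose and 9 fell under carbidopa, 5 rose and 8 fell under LY-364947, and 4 rose and 8 fell under CHIR-99021 (all genes, 37.7%, 31.0% and 38.8% in either direction). Klf9, a Krüppel-like factor, went from 53.6 ± 0.637 CPM in MEFs to 113 ± 7.23, 112 ± 4.74 and 110 ± 3.35 (SD, n = 2) in the order carbidopa, LY-364947 and CHIR-99021. Ebf1, an early B cell factor that also acts in fat cell precursors, went from 110 ± 7.08 CPM to 38.3 ± 7.38, 36.1 ± 4.39 and 32.2 ± 1.86. The coactivator Ppargc1a, which partners PPARγ in brown fat, rose from 1.08 CPM to 10.1, 8.30 and 5.75 (log2 fold changes 3.19, 2.91 and 2.38), and Zfp423, a preadipocyte factor, rose from 3.95 CPM to 10.2, 12.2 and 11.0.

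Of 16 anti-adipogenic factors, 5 rose in each treatment and 5, 4 and 2 fell, so that the 2 of 16 lower with CHIR-99021 stand beside 20.1% of all genes. Gata3, which holds precursors back from differentiation, stood at 3.35 and 3.94 CPM in MEFs against 28.4 and 26.6 (carbidopa), 32.2 and 30.2 (LY-364947) and 45.0 and 44.9 (CHIR-99021). It rose by 2.91, 3.09 and 3.62 on the log2 scale, with adjusted p-values of 1.41e-07, 9.45e-08 and 3.24e-08. The Wnt ligand Wnt10b had 1 and 2 reads in MEFs and was higher in each treatment. It had 29 and 24 reads with carbidopa, a ratio to MEFs of 11.98 (95% exact interval 3.88 to 59.9, counting error only), 16 and 25 with LY-364947, a ratio of 10.8 (3.45 to 54.6), and 67 and 64 with CHIR-99021, a ratio of 36.5 (12.2 to 179). Zfp521, a repressor of EBF1, went from 95.4 CPM to 38.9, 41.7 and 32.1. Dlk1, the preadipocyte antigen Pref-1, rose from 233 CPM to 518 with carbidopa and 407 with LY-364947 and stood at 203 with CHIR-99021, where it did not pass the test. The Notch target Hes1 fell from 34.7 CPM to 21.4 and 17.1 with these molecules (with carbidopa a log2 fold change of -0.70, or -0.44 without carbidopa replicate 2) and stood at 39.4 with CHIR-99021, again without passing the test.

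**Figure D4:**
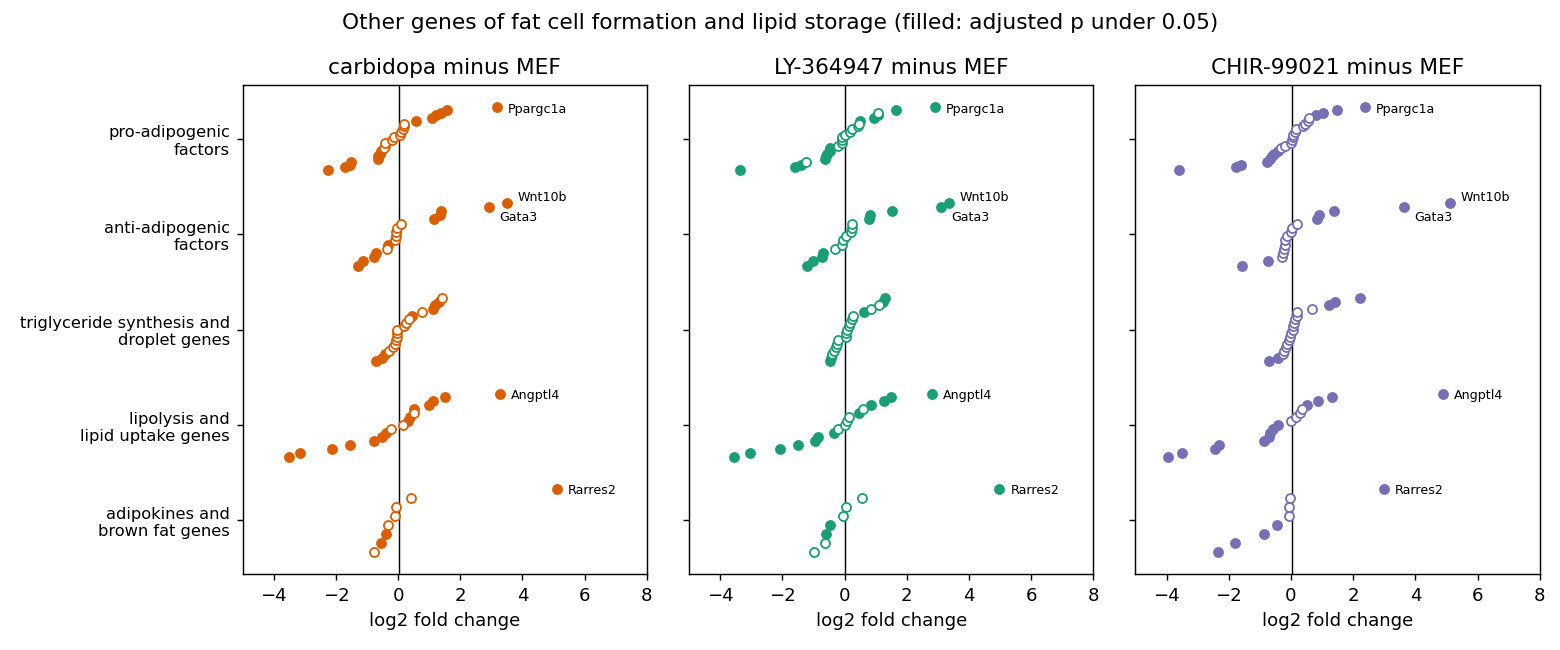
Log2 fold change against MEFs (x axis) of the 84 tested genes in the 5 wider lists, sorted within each list, for carbidopa, LY-364947 and CHIR-99021; filled points have an adjusted p under 0.05 and the vertical line is the median of all genes tested. Each list has points on both sides of the line, with Angptl4, Gata3, Wnt10b, Ppargc1a and Rarres2 far to the right.

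Of 25 genes of triglyceride synthesis and droplets, 19 were tested, of which 4 rose and 3 fell under carbidopa and 3 rose and 2 fell under LY-364947, as under CHIR-99021. The share of these 19 that passed the test was thus no higher than among all genes (37.7%, 31.0% and 38.8%). Dgat1, which makes triglyceride, went from 4.56 CPM to 10.4, 11.3 and 10.6, and Acsl1, which activates fatty acids, from 7.88 to 19.3, 18.5 and 20.8. Me1, an enzyme that supplies reducing power, was at 219 CPM in MEFs and at 164, 156 and 165 in treated cells. Its 3 falls were lost without MEF replicate 2 (adjusted p = 0.0913, 0.0580 and 0.0882), and that with CHIR-99021 also without CHIR-99021 replicate 1 (adjusted p = 0.0893). Elovl6, a fatty acid elongase, stood at 184 CPM in MEFs and at 129, 151 and 112 in treated cells. It fell with CHIR-99021 (adjusted p = 0.00237) and with carbidopa (adjusted p = 0.0155), the latter call being lost without MEF replicate 1 (adjusted p = 0.0518) or MEF replicate 2 (adjusted p = 0.119). Its log2 fold change with carbidopa was -0.51, or -0.32 without carbidopa replicate 1, and it did not pass with LY-364947 (adjusted p = 0.145). In fits of the 2 compared groups alone, the carbidopa call was lost (edgeR adjusted p = 0.0531). The value with LY-364947 passed there (-0.29, edgeR adjusted p = 0.00489).

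Of 21 genes of lipolysis and lipid uptake, 17 were tested, with 7 higher and 7 lower for carbidopa, 5 and 7 for LY-364947 and 4 and 9 for CHIR-99021 (all genes, 37.7%, 31.0% and 38.8% in either direction). Cav1, the caveolin that is abundant in fat cells and fibroblasts, fell from 1268 CPM to 111, 107 and 111. Mgll, which completes the breakdown of triglyceride, fell from 25.3 CPM to 2.81, 3.09 and 1.62, and Cav2 fell from 129 CPM to 29.8, 30.2 and 26.0. Angptl4, a secreted inhibitor of lipoprotein lipase and a PPAR target, stood at 3.79 and 3.87 CPM in MEFs against 40.2 and 33.6 (carbidopa), 23.5 and 30.9 (LY-364947) and 121 and 106 (CHIR-99021). The inhibitor was thus highest in the group in which Lpl itself was lowest, and it rose by a log2 fold change of 4.89 there (standard error 0.19, edgeR adjusted p = 3.28e-08). On the log2 scale, the CHIR-99021 libraries exceeded those of carbidopa by 1.62 (adjusted p = 1.04e-04) and those of LY-364947 by 2.06 (adjusted p = 2.94e-05). The carbidopa libraries, in contrast, lay above those of LY-364947 for both Angptl4 and Lpl. A link between the levels of these genes was not tested.

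Among 15 adipokine and brown fat genes, 8 were tested, 1 rose in each treatment and 2, 2 and 4 fell (all genes, 37.7%, 31.0% and 38.8% in either direction). The riser was Rarres2, which encodes chemerin, at 0.273 CPM in MEFs and 9.68, 8.93 and 2.23 in treated cells (log2 fold changes 5.10, 4.98 and 2.98). Its 95% intervals were 4.27 to 5.93, 4.14 to 5.82 and 1.98 to 3.98, and the MEF libraries held only 3 and 5 reads. Nampt, which makes a precursor of NAD, fell from 95.4 CPM to 65.5, 63.6 and 52.8. Adipor1, a receptor of adiponectin, fell from 244 CPM to 186, 178 and 178. The peptide hormone Apln fell from 3.69 to 0.724 CPM with CHIR-99021 and stood at 2.93 with carbidopa and 2.38 with LY-364947, without passing the test. The carbidopa call for Adipor1 was lost without MEF replicate 1 (adjusted p = 0.0520) or MEF replicate 2 (adjusted p = 0.0673). Of the 17 genes too low for a test, Cidec, Gpihbp1 and Lep had 0 reads in all libraries and none had more than 10 in any.

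The genes with the most similar pattern over the 8 libraries were found for each tested gene by Pearson's r of log2 CPM, as a description over points that share libraries. Lpl was most like Rnase4 (r = 0.998), Cdh8 and Glipr1. Tatdn2 and Utp4 were among the 3 genes most like Fabp4, and Cd36 was most like Rrm1 (r = 0.993), C1s1 and Ms4a4d. Cebpd was most like Lgmn (r = 0.995), Pcmt1 and Tdrd7, and Cebpb most like Ap2m1 (r = 0.982), Hdgf and Hnrnpab. Pparg was most like Epb41l4a (r = 0.95), Mrps16 and Tmem202, and Cebpa most like Tle6 (r = 0.960), Spn and Pdlim4. Within the group the closest pair was Lpl with Cebpd (r = 0.91), whereas Cd36 and Fabp4 ran opposite to each other (r = -0.77).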

How the data were processed

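RNA-seq libraries of untreated MEFs and of MEFs cultured with each compound were sequenced in paired ends by the authors, mapped to mm10 with STAR (version 2.4.2a in the submitters' processing notes) and counted per gene with featureCounts. The deposited table holds these counts as whole numbers without normalization. The labels name a SMARTER kit and the methods a NEBNext Ultra kit, and the annotation release and strand setting are not given in the sources used here. Groups and replicate numbers were taken from the sample titles.

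Counts were analysed in R 4.3.3. Genes with low counts were removed by filterByExpr of edgeR 4.0.16, which left 15154 of 50578 genes, and the 4 groups were fitted together with TMM normalization and the quasi-likelihood test (biological coefficient of variation 11.0%, 4 residual degrees of freedom). Benjamini-Hochberg adjustment was over all genes tested in each of 6 comparisons. Standard errors were derived from the F statistic. CPM used TMM library sizes, and the prior count for correlations was 2. Gene positions are from GENCODE M21, which held 99.6% of the identifiers. The method was tested on simulated data.

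The genes and lists were chosen with earlier results of these data known. From each wider list the 3 genes with the smallest p among those past the threshold in a comparison with MEFs are named, from the macrophage and fibroblast lists the 2 markers of highest mean CPM, from the endothelial and hepatocyte lists markers at 0, and for each tested gene the 3 most correlated others. Of the genes these rules name, 1 is not reported here. Alternatives were DESeq2 1.42.0, RLE size factors, no filter, at least 10 counts in every library, a replicate block, fits of the 2 compared groups and the omission of each library in turn; those for the wider lists were chosen after seeing the data. Depth limits genes near 3 reads per library, which a count of 0 allows.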

Additional observations from a re-analysis of the deposited data

How the results depend on the processing

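Of 420 recomputed log2 fold changes of the 7 tested genes, 391 kept their direction and side of the threshold, 12 newly passed it, 6 no longer did and 11 changed sign. The sign depended on the library left out for Cebpb between carbidopa and MEFs (-0.11 without carbidopa replicate 1, up to 0.78) and between CHIR-99021 and carbidopa (-0.40 to 0.48, with 0.14 without CHIR-99021 replicate 2; 0.0010 with a replicate block). It did so for Pparg with LY-364947 (-0.047 without MEF replicate 2, -0.01 without replicate 2 of LY-364947, up to 0.41) and with CHIR-99021 (-0.28 to 0.20, with 0.10 without CHIR-99021 replicate 2). It did so for Cebpa between LY-364947 and carbidopa (-0.54 to 0.34) and between CHIR-99021 and carbidopa (-0.28 to 0.59), and for Cd36 between LY-364947 and carbidopa (-0.14 to 0.048). No value of opposite sign was past the threshold. With the compared groups alone, 5 of the 7 genes fell with LY-364947 (Cebpb and Cebpa added), 0 genes of all differed between LY-364947 and carbidopa, 988 between CHIR-99021 and carbidopa and 3571 between CHIR-99021 and LY-364947. The call of Cebpd between CHIR-99021 and carbidopa was lost there (adjusted p = 0.0575). Between LY-364947 and carbidopa, DESeq2 gave 16 genes and no filter gave 329, with 2 of the 7 (Cebpb and Cebpd) lower. Between CHIR-99021 and LY-364947, 2 of the 7 were higher under DESeq2, no filter, the groups alone and the replicate block, since Cebpb joined Fabp4 (adjusted p = 0.0447, 5.00e-04, 0.00774 and 0.0385). Leaving out single libraries gave 3164 to 7971 genes for carbidopa against MEFs, 2885 to 3133 for LY-364947, 3487 to 4718 for CHIR-99021, 2 to 3832 for LY-364947 against carbidopa, 735 to 4675 for CHIR-99021 against carbidopa and 665 to 1214 for CHIR-99021 against LY-364947. Of the 7 genes, 0 to 1 were then higher and 2 to 4 lower with carbidopa, 0 to 2 lower for LY-364947 against carbidopa and 2 to 3 lower for CHIR-99021 against carbidopa. A lone library was assumed to vary like the other groups. The cause of these shifts was not tested. Nothing states that replicate numbers pair the libraries. The deviations of same-numbered libraries correlated at -0.16 to 0.13, which cannot exclude pairing, and the block changed no other call of the 7 genes. Of 621 recomputed values of the named genes of the wider lists, 610 kept direction and call, 9 no longer passed and 2 newly did; of 300 recomputed counts of these lists, 38 moved by more than 1.5 times. RLE size factors moved the median of all genes by less than 0.1 on the log2 scale. With 2 libraries a group, the spread within a group rests on a single difference, and the fit pooled it over the 4 groups (4 residual degrees of freedom). The quasi-likelihood fit also borrowed spread from other genes, so its p-values and intervals rest on more than these 4 degrees of freedom. For genes with few reads, counting error also limits the precision.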

Other observations

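The replicates of each group differed by GC content of the transcript. In carbidopa, the median log2 ratio of replicate 1 over replicate 2 was 0.03 over 13278 coding genes tested, 0.19 over the 312 coding genes with a single exon, -0.09 in the fifth of genes with the lowest GC content of the transcript and 0.23 in the fifth with the highest. From the genes of lowest to those of highest GC content it went from -0.11 to 0.18 in CHIR-99021, from 0.12 to -0.13 in LY-364947 and from -0.07 to 0.06 in MEFs. Cebpb, Cebpa and Cebpd, whose levels differed most between the carbidopa libraries, have GC contents of 67.2%, 62.6% and 51.6%. Pparg has 50.2%, Lpl 43.5%, Fabp4 40.3% and Cd36 38.4%. The part of GC content in these differences was not tested.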
